A study of Mus musculus with 16 samples.

Results

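The protein-coding genes of the cytosolic ribosome were followed across 16 mouse liver RNA-seq libraries. Members were the protein-coding genes whose GRCm38 symbol starts with Rpl or Rps followed by a digit, together with Rplp0, Rplp1, Rplp2 and Rpsa. Of 55471 genes in the count tables, 83 met this rule. It dropped 10 Rps6k kinases, 296 pseudogenes and 3 genes with under 160 fragments over all libraries. The 83 genes encode 41 proteins of the body of the large subunit, 3 stalk proteins, the 2 protein partners of the 5S rRNA and 31 proteins of the small subunit. The name rule also took 4 paralogs (Rpl22l1, Rpl36al, Rps27l and Rps27rt) and 2 genes that do not encode ribosomal proteins. These were Rpl7l1, a homologue of Rpl7 that acts in large-subunit assembly, and Rps19bp1, which encodes a binding partner of Rps19.

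The study exposed mice to antibiotics and examined the liver in old age, with untreated aged and young mice beside them. Each of 4 groups had 4 mice and 1 library of total RNA per mouse. PAM I and PAM II were aged mice (102 weeks) of the antibiotic groups with those names, the aged controls were mice of 102 weeks without antibiotics, and the young mice were 12 weeks old and had none. The labels give neither the drugs and their doses nor the strain and sex of the animals. One label field of the 12-week animals describes them as old, against their title, age and group fields, which were followed. The aged controls are the reference of PAM I, of PAM II and of both together, and the aged side of the age comparison, so these 4 comparisons share their libraries. PAM II against PAM I uses none of the aged controls, but it shares its PAM I and PAM II libraries with the other antibiotic comparisons.

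The cytosolic ribosome translates nuclear-encoded mRNAs on a small subunit, which holds the mRNA and decodes it, and a large subunit, which forms the peptide bond. Each ribosomal protein is normally present once per ribosome, apart from the stalk proteins Rplp1 and Rplp2, so that cells make the proteins in near equal amounts. Their mRNAs begin with a C followed by a run of C and T, the 5′ terminal oligopyrimidine motif, through which the mTORC1 pathway adjusts their translation to nutrients. In the liver, ribosomes carry the synthesis of the plasma proteins that hepatocytes secrete.

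The start regions of several members show this motif and its absence in others. Each line gives 15 bases before and 15 bases from the RefSeq transcription start (GRCm38.p6, 5′ to 3′ on the strand of the gene), with the longest run of C and T in capitals. Where several starts are listed for a gene (3 for Rpl35a, 2 for Rps27l), the one with the longest run was taken. The runs marked in Rps27l and Rps27rt end before the start. Those in Rpl18 and Rpl22l1 begin 1 base after the start base, which is a G in both genes. Rps6, Rps18 and Rpl35 are shown for long runs at the start, Rpl35a and Rpl18 because they had the smallest p-values in the age comparison, Rps27 beside its paralogs Rps27l and Rps27rt, and the last lines as a paralog of Rpl22 and a gene that encodes no ribosomal protein.
Rps6: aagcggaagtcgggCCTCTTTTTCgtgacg
Rps18: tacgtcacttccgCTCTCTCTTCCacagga
Rpl35: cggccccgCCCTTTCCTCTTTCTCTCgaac
Rpl35a: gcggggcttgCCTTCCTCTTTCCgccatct
Rpl18: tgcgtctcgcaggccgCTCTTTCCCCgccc
Rps27: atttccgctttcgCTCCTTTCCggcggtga
Rps27l: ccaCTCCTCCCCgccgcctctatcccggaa
Rps27rt: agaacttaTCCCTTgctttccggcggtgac
Rpl22l1: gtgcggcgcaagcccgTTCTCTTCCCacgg
Rps19bp1: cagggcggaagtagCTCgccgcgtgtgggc

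These windows lie at chr4:86857353-86857382 (minus strand) for Rps6, chr17:33955651-33955680 (minus strand) for Rps18, chr2:39005117-39005146 (minus strand) for Rpl35, chr16:33056467-33056496 (plus strand) for Rpl35a and chr7:45718056-45718085 (plus strand) for Rpl18. Rps27 lies at chr3:90213634-90213663 (minus strand), Rps27l at chr9:66946071-66946100 (plus strand), Rps27rt at chr9:114982725-114982754 (minus strand), Rpl22l1 at chr3:28805493-28805522 (plus strand) and Rps19bp1 at chr15:80264292-80264321 (minus strand). The longest run reached 18 bases in Rpl35, 13 in Rpl35a, 11 in Rps18 and 10 in Rps6, Rpl18 and Rpl22l1, against 3 in Rps19bp1. RefSeq promoters were found for 63 of the 83 members, with 74 starts in all. A run of at least 7 C or T on the strand of the gene, within 20 bases before to 30 after the start, occurred at 60.8% of the member starts, against 27.9% of 21263 starts of protein-coding genes. A C at the start followed by 4 bases of C or T occurred at 18.9% of member starts, against 2.21% of all starts. Over the whole promoter of 250 bases before to 50 after the start, on both strands, CCGGAAG was found at 35.1% of member starts against 11.6% of all starts. The sequence AAGATGGCG occurred at 8.11% of member starts against 1.83% of all starts, and TATAAA at 9.46% against 12.6%. A match of letters is a description only.

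Libraries held between 36968993 and 52090914 fragments assigned to genes. Each of the 19 hepatocyte markers found in the files had fragments in every library, and their summed level was between 102387 and 160685 CPM (fragments scaled to library size by the trimmed mean of M values). Mitochondrially encoded mRNAs took 13.5% of the fragments of young replicate 1, against 3.98% to 8.77% in the other libraries. That library also had the fewest fragments. All 13 Kupffer cell markers and all 19 lymphocyte markers were detected in every library. The summed Kupffer cell level was 371 to 1652 CPM in PAM I, 478 to 1919 CPM in PAM II, 267 to 942 CPM in aged controls and 304 to 410 CPM in young mice. In bulk tissue, fewer cells of a type and less RNA per cell cannot be told apart.

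All 83 members passed the filter on low counts, with totals between 1748 fragments (Rps10) and 325765 fragments (Rplp1) over the 16 libraries. Levels between genes were compared as mean CPM per kilobase of the principal transcript. The median member stood at 184 CPM per kilobase, and 62 of 83 members lay within 2-fold of it. The 5 highest levels were those of Rplp1 at 918 CPM per kilobase, Rpl41 at 592, Rps15 at 535, Rps29 at 451 and Rplp2 at 432. Scaled instead to all annotated exon bases of each gene, Rplp1, Rps15 and Rps29 took ranks 1, 2 and 4. Rpl41 then had rank 8 and Rplp2 rank 37, at 87.8 CPM per kilobase, so the place of Rplp2 depends on the transcript chosen. Rplp1 and Rplp2 form the flexible arms of the stalk that recruits translation factors, and they are the proteins present in more than 1 copy per ribosome. Rplp0, the base of the same stalk, stood at 256 CPM per kilobase. Rpl41 is a very short peptide of the large subunit, and Rps15 lies near the decoding site.

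The 5 lowest levels were those of Rpl24 at 4.50 CPM per kilobase, Rps10 at 4.96, Rpl36al at 8.55, Rpl13a at 11.8 and Rps27rt at 14.6. Rpl24 contributes to a bridge between the subunits, Rps10 lies at the head of the small subunit, and Rpl13a is known for a second role in silencing inflammatory mRNAs after its release from the ribosome. The lowest 4 were the members with most of their exon bases inside another annotated gene on the same strand. The shared part was 71.5% for Rpl24 (chr16:55966275-55971435, with Gm28037), 91.6% for Rps10 (chr17:27630418-27636669, with RPS10-NUDT3), 63.1% for Rpl36al (chr12:69182731-69184083, with Gm49383) and 59.3% for Rpl13a (chr7:45125558-45128761, with Gm45713 and Mir5121). Those overlapping genes were themselves counted with 52 fragments in all 16 libraries for Gm49383 and 0 for Gm28037, RPS10-NUDT3, Gm45713 and Mir5121. The file headers record a count without multi-overlapping fragments, which leaves such bases out of both genes. Rpl19 shared 10.7% of its exon bases and the other 78 members shared none.

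**Figure D1:**
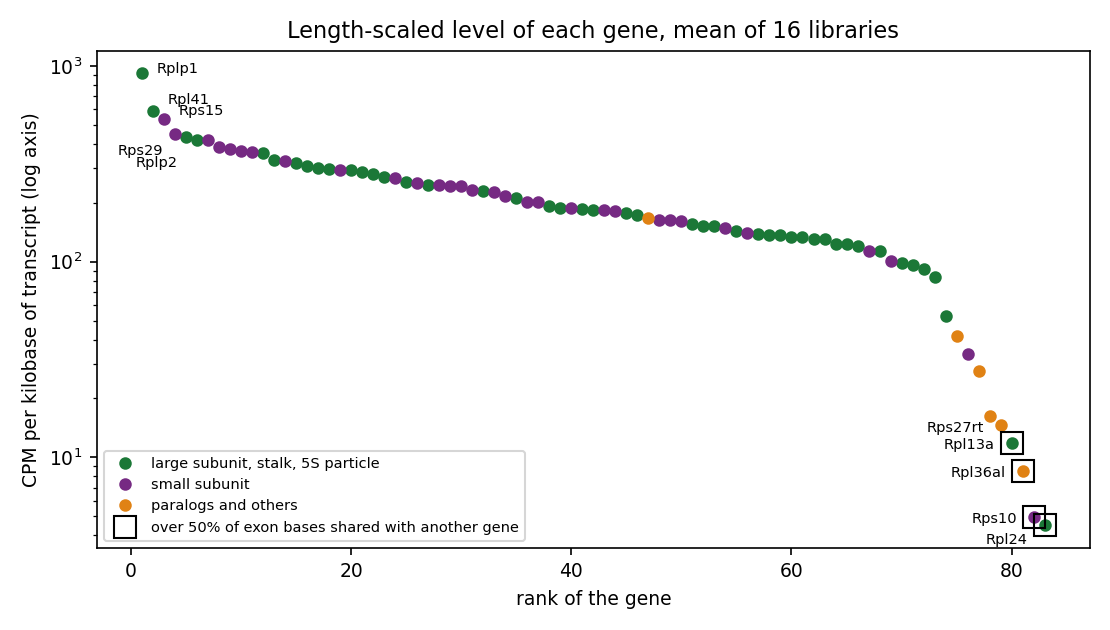
Length-scaled level of each of the 83 genes (mean CPM per kilobase of transcript over 16 libraries, log axis) against its rank, coloured by subunit. The 4 genes in squares share over 50% of their exon bases with another gene on the same strand, and they take the last 4 ranks, at 4.50 to 11.8 CPM per kilobase.

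Processed copies are a second limit on the levels. The files hold 287 pseudogene rows named after 57 of the members, and the fragments on those rows exceeded 10% of the fragments of the parent for 7 members. For Rpl14, a large-subunit protein, the copies held 45.5% as many fragments as the gene, for Rpl38 44.5%, for Rpl23a 27.9%, for Rpl17 26.4%, for Rpl36a 24.1% and for Rpl21 20.2%. For Rps10 the copies held 1712%, most of them on Rps10-ps2, which had 25230 fragments against 1748 for Rps10. Fragments that match a gene and its copy equally well were left out, so the levels of these 7 members are uncertain. Other members with copies can lose fragments in the same way without exceeding 10%, such as Rps12 and Rpl31 with 24 named copies each. Rps20, which helps form the head of the small subunit, stood at 33.8 CPM per kilobase because its principal transcript is annotated as 3706 bases long, and its CPM of 125 was close to that of Rps27a at 119.

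Rpl10l, Rpl39l and Rpl3l, protein-coding paralogs known from other tissues, fell under the count minimum. Rpl10l, which replaces Rpl10 in male germ cells, had 0 fragments in all 16 libraries, Rpl39l had 10, and Rpl3l, the form of Rpl3 known from striated muscle, had 86.

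Together the 83 genes took between 0.954% and 1.72% of the fragments of a library. Their summed level was 13096, 12034, 14319 and 15583 CPM in PAM I replicates 1 to 4, and 15408, 10724, 11761 and 10611 CPM in PAM II. It was 13548, 9717, 11113 and 14188 CPM in aged controls and 16969, 11919, 12004 and 13982 CPM in young mice. The highest library, young replicate 1, had 1.75 times the level of the lowest, aged control replicate 2, and every group overlapped every other. As a share of all fragments the highest library was PAM II replicate 1, at 1.80 times the lowest. The mean sums were 13758 ± 1534 CPM in PAM I, 12126 ± 2248 CPM in PAM II, 12141 ± 2090 CPM in aged controls and 13719 ± 2367 CPM in young mice (SD, n = 4 each). As shares of all fragments the means were 1.42 ± 0.193% in PAM I, 1.24 ± 0.332% in PAM II, 1.27 ± 0.301% in aged controls and 1.28 ± 0.170% in young mice (SD, n = 4 each), so aged controls and young mice lay closer as shares than as scaled CPM. The sum of the large-subunit genes was 1.30 to 1.35 times that of the small-subunit genes in every library. In PAM II livers and aged controls this ratio fell in order as the total rose. It was 1.30 in PAM II replicate 1 and 1.31 in aged control replicate 4, the highest totals of their groups. PAM I livers and young mice had no such order.

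**Figure D2:**
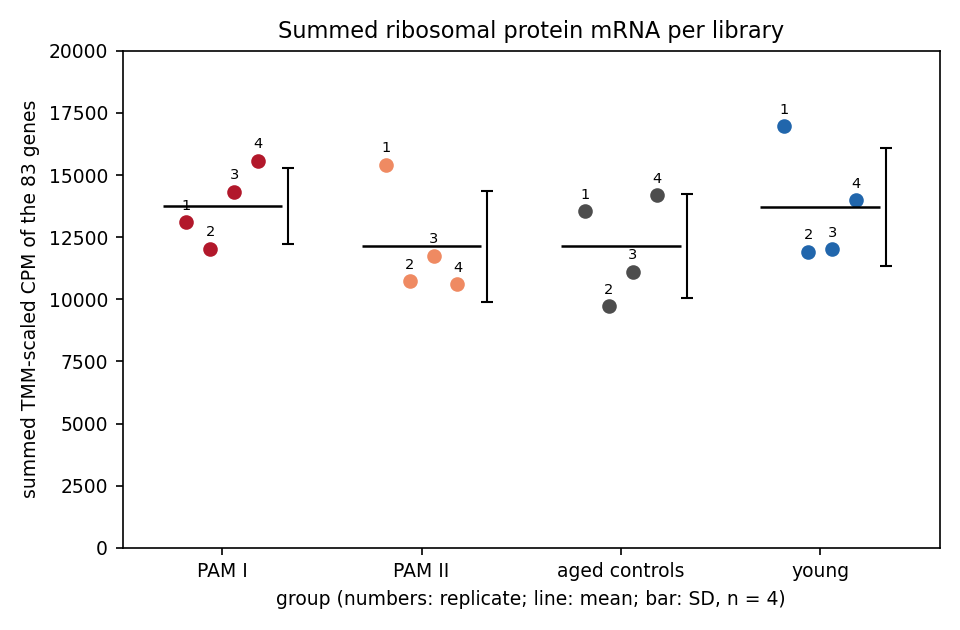
Summed level of the 83 genes (CPM, linear axis from 0) in each of 16 libraries, with the group mean as a line and the SD as a bar (n = 4). The sums run from 9717 CPM in aged control replicate 2 to 16969 CPM in young replicate 1, and the 4 groups overlap.

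Within groups the members moved together. The SD of a member around its group mean was 0.26 in log2 CPM (median of 83), below the median of 0.32 over all genes tested. It was above the medians of 0.16 for translation factors, 0.15 for ribosome biogenesis genes and 0.13 for mitochondrial ribosome genes. After the mean of the other 82 members was subtracted in each library, the median SD was 0.12, which removed 83.1% of the variance of the median member. The SD became smaller for 75 of 83 members. The same step removed 26.1% for 38 translation factors, 10.3% for 78 ribosome biogenesis genes and 34.1% for 77 mitochondrial ribosome genes. Rpl23 lost 97.1% of its variance, Rpl18 96.0% and Rps24 95.3%. The shared part is also affected by the scaling of each library, and these shares are a description without a test.

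The 8 members whose SD did not become smaller were Rpl7l1, Rpl15, Rpl4, Rpl7a, Rplp0, Rps2, Rps27l and Rpl3. Rpl7l1, the assembly factor, had an SD of 0.16 by itself and 0.34 after the subtraction. Rpl15, a core protein of the large subunit, had the smallest SD of all members, 0.10, against 0.46 for the member with the largest.

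Single libraries stood at the ends of their groups for most members. PAM I replicate 4 was the highest of its group for 68 members and PAM I replicate 2 the lowest for 74. PAM II replicate 1 was the highest of its group for 80 members. Among aged controls, replicate 4 was the highest for 62 members and replicate 1 for 21, and replicate 2 was the lowest for 73. Young replicate 1 was the highest young library for 64 members. The summed Kupffer cell markers were also highest in PAM II replicate 1 (1919 CPM) among PAM II libraries, and in replicates 3 and 4 (1652 and 1325 CPM) among PAM I libraries. In aged controls they stood at 942 and 892 CPM in replicates 1 and 4, against 335 and 267 CPM in replicates 2 and 3. Young replicate 1, with the highest ribosomal protein sum, had the lowest Kupffer cell sum of the young group, 304 CPM. Erythroid markers, of which 7 of 10 were detected in every library, summed to 1539 CPM in PAM II replicate 1, against 216 to 249 CPM in the other PAM II libraries. The lymphocyte sum of 314 CPM and the cell cycle sum of 116 CPM in PAM II replicate 1 were also the highest of that group. The part of these markers in the ribosomal protein level was not tested.

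Young replicate 1 also differed from the other libraries in the proportions among members. The deviations of the 83 members from their own means over 16 libraries had an SD of 0.36 (log2) within this library, against 0.08 to 0.15 within each of the other 15. The lowest was Rpl3, which helps shape the peptidyl transferase centre, at 0.40 below its mean. The highest was Rpl24 at 1.55 above its mean, followed by Rpl21 at 1.17, Rps27rt at 1.05, Rpl28 at 1.03 and Rps15 at 1.003. The 43 members with at most 151 codons had a median deviation of 0.49, against 0.24 for the 40 longer members. Spearman's rho between deviation and codon number was -0.46 over 83 members in this library and lay between -0.49 and 0.63 in the others. The part of RNA quality or of the 13.5% mitochondrial share in this pattern was not tested.

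**Figure D3:**
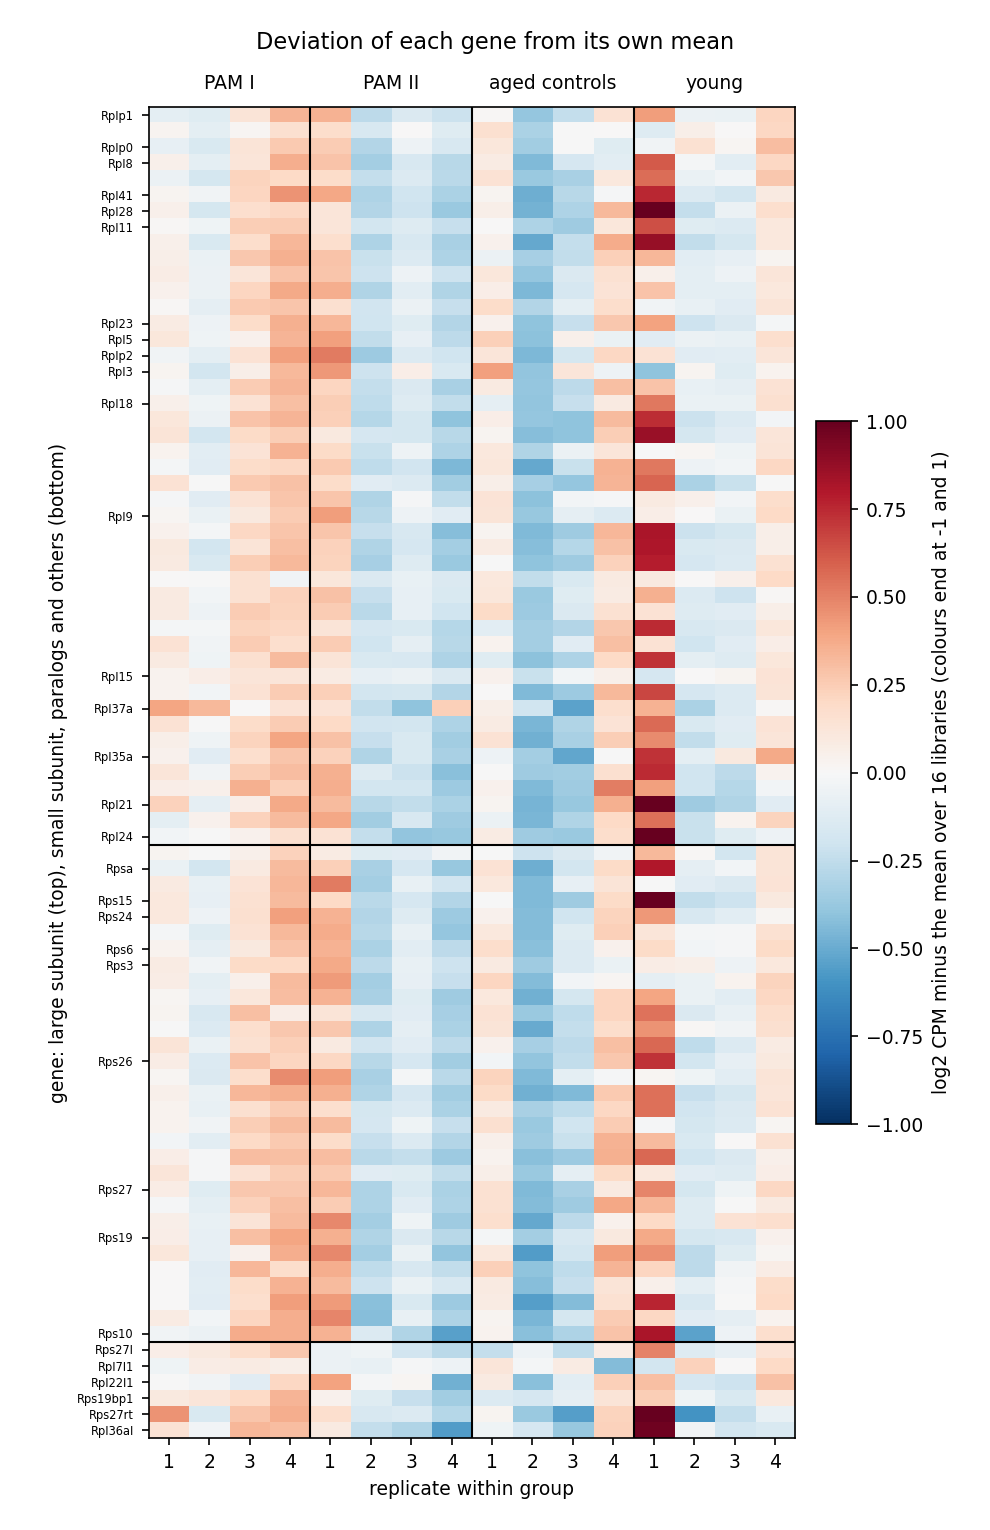
Deviation of each member (rows, ordered by subunit and level, with some of the genes described in the text labelled) from its own mean over 16 libraries in log2 CPM (colour), by library (columns, grouped). Columns are mostly of 1 colour, as in PAM II replicate 1 and aged control replicate 2, and young replicate 1 is the column with the widest range, -0.40 to 1.55.

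PAM I livers had no member that passed the test against aged controls, and every fitted fold change was small and positive. The log2 fold changes ran from 0.02 (Rpl3) to 0.38 (Rps27rt), with a median of 0.19 and 83 of 83 above 0. Over all 17046 genes tested the median was 0.02, with 52.4% above 0. At an adjusted p under 0.05 in edgeR's quasi-likelihood test, 0 members were called, and the background was 0% of all genes (DESeq2 called 15 genes, no member among them). At an unadjusted p under 0.05 the count was 1 member with edgeR, 1 with DESeq2 and 17 with limma voom, and no tool called any after adjustment. By edgeR 9.40% of all genes stood under this unadjusted level. The 95% intervals of 82 members lay within 2-fold in either direction, and those of 41 within 1.5-fold.

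Of the members with the smallest p in this comparison, Rps19bp1 had 14.4, 14.6, 15.4 and 17.0 CPM in PAM I livers, against 12.2, 12.0, 12.7 and 14.7 CPM in aged controls. Its product is known as an activator of the deacetylase Sirt1. The groups overlapped through aged control replicate 4, and the log2 fold change was 0.25 ± 0.11 (SE, n = 4 each, adjusted p = 0.519 by edgeR). Rps27l, a target of p53 in human and mouse cells, had 87.1, 88.6, 93.7 and 100.2 CPM in PAM I livers, against 70.4, 79.9, 69.6 and 87.4 CPM in aged controls. Only aged control replicate 4 reached the PAM I range, and the log2 fold change was 0.27 ± 0.13 (SE, adjusted p = 0.540 by edgeR). Rpl37a, a zinc-binding protein of the large subunit, had 98.2, 93.8, 74.96 and 82.3 CPM in PAM I livers, against 78.0, 65.2, 51.6 and 84.1 CPM in aged controls. The groups overlapped and its log2 fold change was 0.32 ± 0.18 (SE, adjusted p = 0.586 by edgeR).

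The members of the stalk did not stand apart in PAM I livers. Rplp1 averaged 476 ± 73.0 CPM in PAM I livers and 421 ± 69.4 CPM in aged controls, Rplp2 195 ± 31.9 CPM in PAM I livers and 173 ± 34.2 CPM in aged controls, and Rplp0 357 ± 47.2 CPM in PAM I livers and 326 ± 43.4 CPM in aged controls (SD, n = 4 each). Rpl5 and Rpl11, which with the 5S rRNA hold back Mdm2 when ribosome assembly fails, had log2 fold changes of 0.15 ± 0.16 and 0.24 ± 0.17 (SE). Rps6, the substrate of the S6 kinases, averaged 234 ± 26.0 CPM in PAM I livers and 210 ± 36.1 CPM in aged controls. The median log2 fold change was 0.19 over 46 large-subunit genes and 0.17 over 31 small-subunit genes.

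The size of the shift depended on single libraries. Without aged control replicate 2, the library with the lowest ribosomal protein sum, the median log2 fold change was 0.09 and 74 of 83 members stood above 0. Without PAM I replicate 4 it was 0.12, and without aged control replicate 4 it was 0.27, with 81 of 83 above 0. Markers of other cells had positive medians in the same comparison. The median log2 fold change was 0.70 over 13 Kupffer cell markers and 0.52 over 19 lymphocyte markers, whose summed level was 184 to 648 CPM in PAM I livers and 104 to 241 CPM in aged controls. At an unadjusted p under 0.05 edgeR counted 0 Kupffer cell and 3 lymphocyte markers and called none, while DESeq2 called 1 lymphocyte marker and limma voom none. Skeletal muscle markers summed to 20.3 to 73.8 CPM in PAM I livers and 16.3 to 47.6 CPM in aged controls, with 18 of 25 at 0 in at least 1 library, and with their mean as a covariate the members' median was 0.24. Over the 24 skeletal muscle markers tested the median log2 fold change was 2.26, with 1.15 over 8 erythroid markers tested and 0.39 over 20 cell cycle genes, and edgeR called none of them. At an unadjusted p under 0.05 edgeR counted 4 muscle, 0 erythroid and 1 cell cycle genes, and neither DESeq2 nor limma voom called any. The part of the Kupffer, lymphocyte, erythroid and cell cycle markers in the shift was not tested.

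In PAM II livers against aged controls the members had a median near 0, whose sign turned with single libraries. The log2 fold changes ran from -0.16 (Rpl36al) to 0.13 (Rpl9), with a median of -0.0046, against 0.0056 over all genes, and 39 of 83 members stood above 0. By edgeR 0 members were called, with a background of 0%, and at an unadjusted p under 0.05 the count was 0 members with edgeR, 0 with DESeq2 and 0 with limma voom, against 2.73% of all genes by edgeR. The 95% intervals of all 83 members lay within 2-fold in either direction and those of 76 within 1.5-fold.

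Rpl9, a protein of the large subunit near the factor-binding site, had 165.8, 102.5, 120.1 and 114.7 CPM in PAM II livers, against 135.7, 95.4, 116.6 and 113.2 CPM in aged controls. Its log2 fold change of 0.13 ± 0.14 (SE, adjusted p = 1.0 by edgeR) rested on PAM II replicate 1, and it was -0.04 without that library. Rps3, which lines the entry of the mRNA channel, had 280.6, 179.6, 204.8 and 186.7 CPM in PAM II livers, against 229.1, 168.5, 196.4 and 206.4 CPM in aged controls. Its log2 fold change was 0.09 ± 0.14 (SE, adjusted p = 1.0 by edgeR), and -0.07 without PAM II replicate 1. The same library held the highest PAM II value of both genes. Rps19bp1 averaged 12.1 ± 1.40 CPM in PAM II livers and 12.9 ± 1.24 CPM in aged controls (SD, n = 4 each). Without PAM II replicate 1 the median over all members was -0.15, with 82 of 83 below 0, and without aged control replicate 4 it was 0.08, with 75 of 83 above 0.

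In PAM II livers against aged controls the median log2 fold change was 0.51 over Kupffer cell, -0.06 over lymphocyte, 2.07 over erythroid and 0.25 over cell cycle markers. Over skeletal muscle markers it was 3.51, with sums of 12.9 to 170 CPM in PAM II livers and 16.3 to 47.6 CPM in aged controls. No tool called any of these markers, and at an unadjusted p under 0.05 edgeR counted 14 muscle, 6 erythroid, 1 Kupffer cell, 1 lymphocyte and 0 cell cycle markers. With the muscle markers as a covariate the members' median turned to 0.06, with 57 of 83 above 0. The part of the other markers in the member values was not tested.

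Set directly against PAM I livers, PAM II livers had lower fitted values for every member. The log2 fold changes ran from -0.43 (Rpl36al) to -0.0039 (Rpl22l1), with a median of -0.20, against 0.0057 over all genes, and 83 of 83 stood below 0 (82 with RLE scaling). By edgeR 0 members were called, with a background of 0%. At an unadjusted p under 0.05 the count was 2 members with edgeR, 2 with DESeq2 and 24 with limma voom, against 4.56% of all genes by edgeR. The 95% intervals of all 83 members lay within 2-fold in either direction and those of 42 within 1.5-fold.

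Rps19bp1 had 13.8, 12.4, 11.5 and 10.6 CPM in PAM II livers, against 14.4, 14.6, 15.4 and 17.0 CPM in PAM I livers. The 4 PAM II values lay below the 4 PAM I values, and the log2 fold change was -0.35 ± 0.11 (SE, adjusted p = 0.880 by edgeR). Rps27l had 79.7, 80.8, 72.6 and 69.0 CPM in PAM II livers, against 87.1, 88.6, 93.7 and 100.2 CPM in PAM I livers. These values did not overlap either, and its log2 fold change was -0.29 ± 0.13 (SE, adjusted p = 0.880 by edgeR). Both genes were picked for a small p, and the share of all genes whose groups separate in this way was not counted. Rpl36al, the intronless form of Rpl36a, had 4.62, 3.70, 3.55 and 2.95 CPM in PAM II livers, against 4.82, 4.28, 5.495 and 5.39 CPM in PAM I livers. Its groups overlapped at PAM II replicate 1, with a log2 fold change of -0.43 ± 0.24 (SE, adjusted p = 0.880 by edgeR). Without PAM II replicate 1, whose ribosomal protein sum was the highest of its group, the median was -0.33, and without PAM II replicate 4 it was -0.13. Marker lists had median log2 fold changes of -0.21 over Kupffer cell, -0.72 over lymphocyte, 0.99 over erythroid, -0.17 over cell cycle and 0.86 over skeletal muscle markers. With the muscle markers as a covariate the members' median was -0.18. The part of the other markers in the member values was not tested.

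Both antibiotic groups together had a smaller median difference from aged controls than PAM I livers alone. The log2 fold changes ran from -0.00056 to 0.22 (Rpl41), with a median of 0.09, against 0.01 over all genes, and 82 of 83 stood above 0. By edgeR 0 members were called, with a background of 0%, and at an unadjusted p under 0.05 the count was 0 with edgeR, 0 with DESeq2 and 0 with limma voom, against 5.64% of all genes by edgeR. The 3 members with the smallest p were Rps3 with a log2 fold change of 0.15 ± 0.12, Rpl35a with 0.20 ± 0.16 and Rpl9 with 0.16 ± 0.13 (SE). Without aged control replicate 2 the median was -0.0087, with 36 of 83 members above 0, and without aged control replicate 4 it was 0.17. Marker lists had median log2 fold changes of 0.65 over Kupffer cell, 0.24 over lymphocyte, 1.59 over erythroid, 0.27 over cell cycle and 2.94 over skeletal muscle markers, and with the muscle markers as a covariate the members' median was 0.14.

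**Figure D4:**
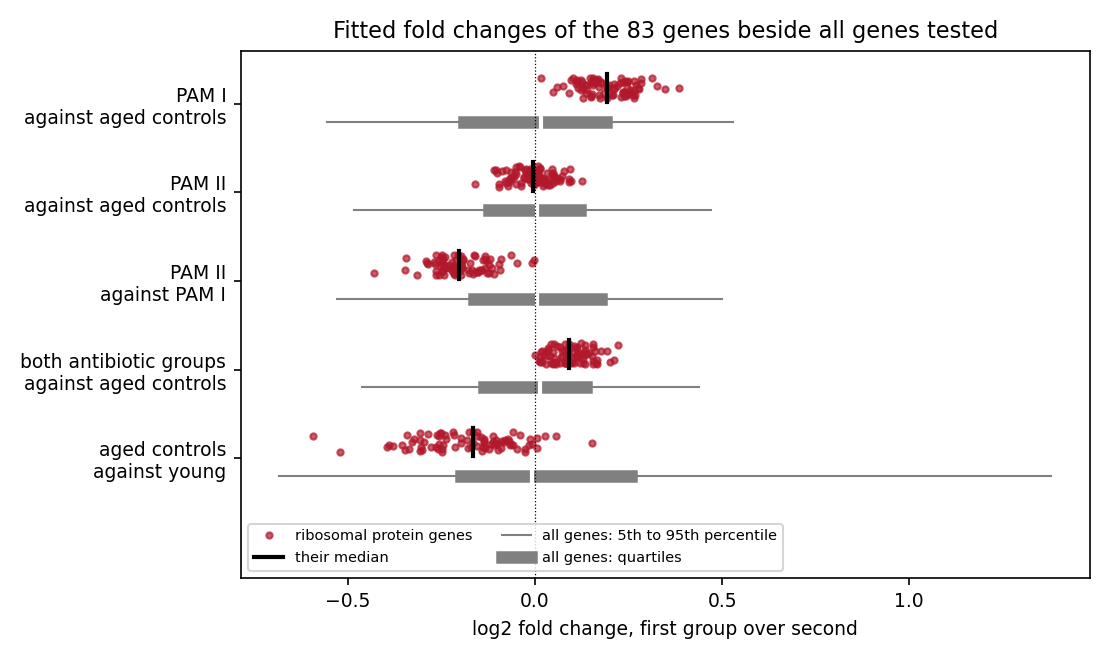
Fitted log2 fold change (first group over second) of the 83 genes (points, with the median as a bar) in the 5 comparisons, above the 5th to 95th percentile and quartiles of all 17046 genes tested. The member medians are 0.19, -0.0046, -0.20, 0.09 and -0.17 from top to bottom, and the points lie within the spread of all genes.

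Aged control livers had no member that passed the test against young livers, although 3.23% of all genes did. That background was 551 of 17046 genes by edgeR, 327 of them higher and 224 lower in aged controls. The members' log2 fold changes ran from -0.59 (Rpl24) to 0.15 (Rpl3), with a median of -0.17, against -0.0077 over all genes, and 78 of 83 stood below 0. By edgeR 0 of 83 members were called, at an unadjusted p under 0.05 the count was 1 with edgeR, 1 with DESeq2 and 7 with limma voom, and no tool called any after adjustment. By edgeR 19.0% of all genes stood under this unadjusted level. The 95% intervals of 82 members lay within 2-fold in either direction and those of 48 within 1.5-fold.

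Rpl35a, which is mutated in some families with Diamond-Blackfan anaemia in humans, had 60.8, 49.7, 43.7 and 62.7 CPM in aged controls, against 103.4, 58.8, 67.1 and 81.6 CPM in young mice. The groups overlapped through young replicate 2, and the log2 fold change was -0.52 ± 0.18 (SE, adjusted p = 0.124 by edgeR), with adjusted p between 0.0648 and 0.307 over 20 other fits. Rpl18 had 156, 126, 141 and 176 CPM in aged controls, against 240, 158, 159 and 186 CPM in young mice, with a log2 fold change of -0.31 ± 0.16 (SE, adjusted p = 0.302 by edgeR). Rpl8, a large-subunit protein at the peptidyl transferase centre, had 317, 220, 266 and 278 CPM in aged controls, against 456, 295, 277 and 345 CPM in young mice. Its log2 fold change was -0.35 ± 0.18 (SE, adjusted p = 0.304 by edgeR). In all 3 genes the highest young value was that of young replicate 1.

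Other members with known roles had intervals that included no change. Rpsa, which is also described as a laminin receptor, averaged 365 ± 75.7 CPM in aged controls and 452 ± 142 CPM in young mice. Rps19, the gene most often mutated in Diamond-Blackfan anaemia in humans, averaged 94.3 ± 12.1 CPM in aged controls and 104 ± 19.6 CPM in young mice. Rps26, which contacts the mRNA at its exit channel, averaged 170 ± 34.9 CPM in aged controls and 204 ± 63.3 CPM in young mice (SD, n = 4 each). Rpl24 averaged 2.68 ± 0.53 CPM in aged controls and 4.06 ± 2.89 CPM in young mice, where replicate 1 held 8.39 CPM and the other 3 libraries 2.45 to 2.76 CPM. Without young replicate 1 the median over all members was -0.04, with 55 of 83 below 0, and the number of all genes called was 271. Without aged control replicate 4 the member median was -0.26.

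The Kupffer cell median log2 fold change was 0.95 over 13 markers and the lymphocyte median 1.15 over 19 markers in aged controls against young mice. Ighm, the heavy chain of IgM, was the single gene of both lists that edgeR called, and it rose. DESeq2 called 6 lymphocyte markers and limma voom 1. At an unadjusted p under 0.05 edgeR counted 2 Kupffer cell and 7 lymphocyte markers. Of 20 cell cycle genes 4 rose by edgeR (Tpx2, Foxm1, Mki67 and Top2a), where DESeq2 called 9 and limma voom 1, with a median log2 fold change of 0.99 over the list and sums of 62.6 to 78.5 CPM in aged controls and 40.3 to 49.9 CPM in young mice. The median of the erythroid markers was -0.90, with 0 of 8 above 0, 1 at an unadjusted p under 0.05 by edgeR, none called by edgeR and 1 each by DESeq2 and limma voom. Skeletal muscle markers summed to 16.3 to 47.6 CPM in aged controls and 28.0 to 180 CPM in young mice, and with their mean as a covariate the members' median was -0.23. With the mitochondrial mRNA level as a covariate it was -0.21. Over the 24 muscle markers tested the median log2 fold change was -3.24, with 1 above 0. At an unadjusted p under 0.05 edgeR counted 9 of them and called none, and DESeq2 called 1. Over 19 hepatocyte markers the median was -0.34, with 3 above 0 and 7 at an unadjusted p under 0.05 by edgeR. Of these, edgeR called 1 (Serpina1c, which fell), DESeq2 2 and limma voom 1. The part of the hepatocyte, Kupffer, lymphocyte, erythroid and cell cycle markers in the member values was not tested.

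Scaled to the summed counts of the 83 genes in place of all genes, a choice made after the data were seen, no member passed in any comparison. This scaling moved the median of all genes to -0.18 in PAM I against aged controls, 0.20 in PAM II against PAM I and 0.17 in aged controls against young mice, and the member medians to within 0.03 of 0. In the age comparison Rpl35a then had a log2 fold change of -0.32 ± 0.14 (SE, adjusted p = 0.235 by edgeR) and Rpl3 0.29 ± 0.19 (SE, adjusted p = 0.549 by edgeR). With upper-quartile scaling 70 of 83 members stood below 0 in that comparison, against 78 with the scaling used throughout. Over 109 combinations of fit and comparison in 29 settings, 0 members were called by any tool, and the largest count at an unadjusted p under 0.05 was 25. Over all genes these fits called 155 to 1343 in the age comparison, 0 to 15 in PAM I against aged controls and 0 in the other antibiotic comparisons.

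Paralogs were compared with their parents as ratios of fragments within each library. A ratio removes movement that both genes share, and Rps27l did not follow the other members, so movement of Rps27 remains in its ratio. Rps27 and its paralogs encode a zinc-finger protein of the small subunit, each with 84 codons. Over the coding sequence Rps27rt matched Rps27 at 252 of 252 bases, whereas Rps27l matched it at 192 of 252 bases (76.2%). The first 60 coding bases are shown, with bases that differ from Rps27 in capitals. In this stretch Rps27l differs at 18 bases and Rps27rt at 0.
Rps27: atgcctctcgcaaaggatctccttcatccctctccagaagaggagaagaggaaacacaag
Rps27rt: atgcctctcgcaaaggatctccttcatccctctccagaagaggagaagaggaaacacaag
Rps27l: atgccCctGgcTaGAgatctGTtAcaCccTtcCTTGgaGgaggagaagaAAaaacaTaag

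Fragments that lie wholly in the coding bases of Rps27rt (chr9:114982366-114982739) and Rps27 (chr3:90212522-90213651) match both genes, and fragments with several matches were not counted. Rps27rt had 3839 fragments over all libraries against 89864 for Rps27. Per 100 fragments of Rps27, Rps27rt had 4.57 ± 0.61 in PAM I, 4.24 ± 0.36 in PAM II, 4.13 ± 0.47 in aged controls and 4.11 ± 1.40 in young mice (SD, n = 4 each). Young replicate 1 stood at 6.18 and the other young libraries at 3.13 to 3.66.

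Rps27l, by contrast, was counted at a level of the same order as Rps27. Fragments of Rps27 that also match Rps27rt were left out, which lowers the count of Rps27. The ratios below can therefore overstate Rps27l, by an unknown amount. Per 100 fragments of Rps27, PAM I livers had 66.7, 77.5, 62.8 and 66.9, PAM II livers 51.1, 80.4, 64.9 and 69.4, aged controls 51.1, 87.4, 70.3 and 66.1, and young mice 67.0, 69.1, 64.8 and 63.7. The 4 groups overlapped, with means of 68.5 ± 6.32 in PAM I, 66.4 ± 12.1 in PAM II, 68.7 ± 14.9 in aged controls and 66.1 ± 2.40 in young mice (SD, n = 4 each). PAM II replicate 1 and aged control replicate 1 had the lowest ratios and aged control replicate 2 the highest. Young replicate 1 and PAM I replicate 4, the libraries with the highest ribosomal protein sums, stood between them at 67.0 and 66.9.

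Rpl22l1, which in mice is held down by Rpl22, had 14.2 ± 1.14 fragments per 100 of Rpl22 in PAM I, 15.5 ± 2.38 in PAM II, 15.4 ± 0.97 in aged controls and 15.7 ± 1.84 in young mice. Their coding sequences match at 66.9% of aligned bases. Rpl36al had 6.82 ± 0.42 fragments per 100 of Rpl36a in PAM I, 6.03 ± 0.41 in PAM II, 6.78 ± 1.04 in aged controls and 7.24 ± 1.69 in young mice (SD, n = 4 each), with 87.7% of coding bases the same. In 20 two-sided exact permutation tests of the log2 ratios (4 pairs in 5 comparisons) the smallest p was 0.0571, for Rpl36al in PAM II against PAM I, where 4 against 4 libraries cannot go below 0.0286. Every Benjamini-Hochberg adjusted p over these tests was at least 0.992. The log2 ratio of Rpl36al to Rpl36a differed by -0.18 there.

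**Figure D5:**
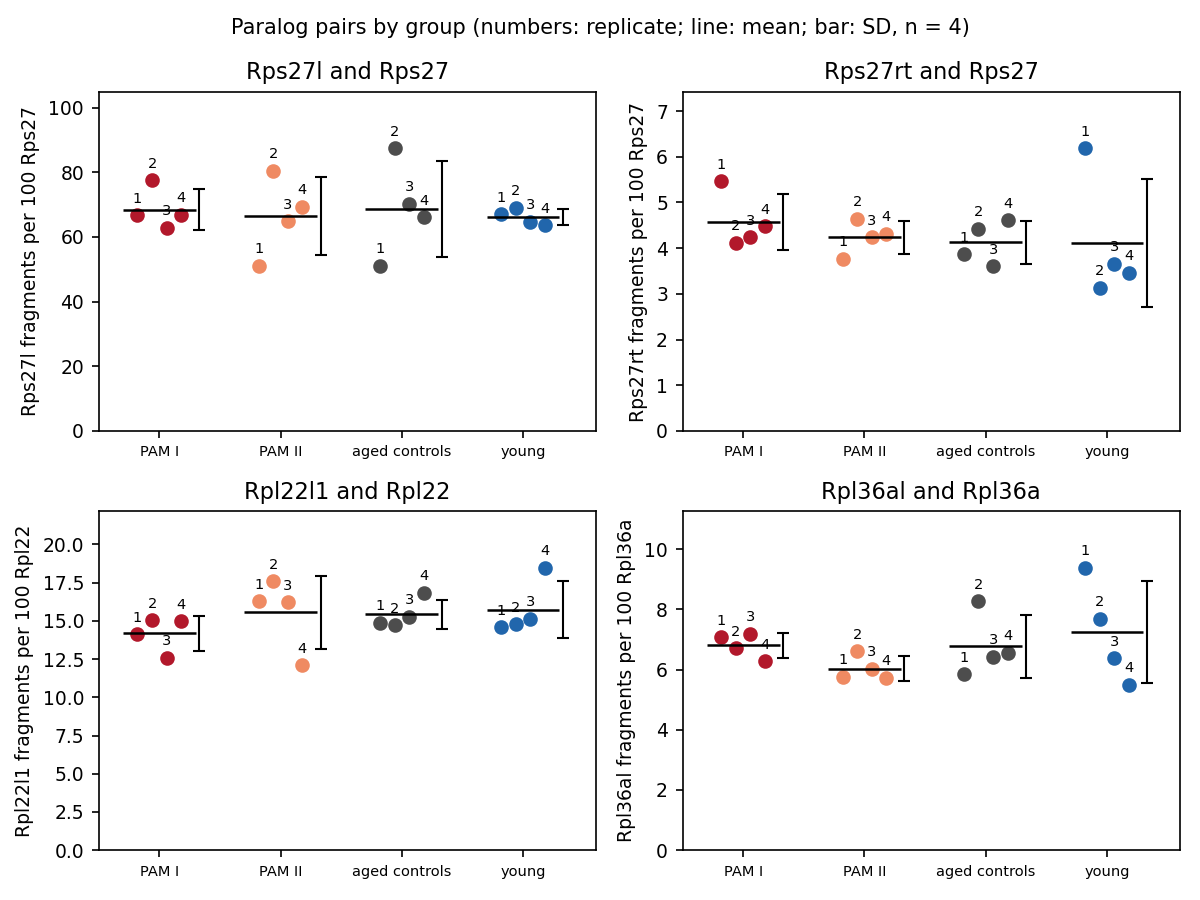
Fragments of each paralog per 100 fragments of its parent gene in each library by group, with mean lines and SD bars (n = 4, axes from 0). Rps27l stands at 51.1 to 87.4 per 100 Rps27, the other paralogs at 3.13 to 18.5 per 100, and the 4 groups overlap in each panel.

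A retrocopy outside the members did change with age. Rps4l, annotated as a transcribed processed pseudogene and a relative of Rps4x, had 13.6 ± 5.88 CPM in aged controls and 26.4 ± 2.68 CPM in young mice (SD, n = 4 each). It fell in aged controls with a log2 fold change of -0.96 ± 0.25 (SE, adjusted p = 0.0452 by edgeR). It passed the threshold in 7 of 20 other fits, with adjusted p between 0.0065 and 0.164 and log2 fold changes between -1.30 and -0.73. Each single library left out other than aged control replicate 4 moved its adjusted p above 0.05. Rps4x itself had a log2 fold change of -0.06 ± 0.18 (SE, adjusted p = 0.885 by edgeR) in the same comparison. Rps4l averaged 13.3 ± 0.99 CPM in PAM I livers and 12.2 ± 2.87 CPM in PAM II livers (SD, n = 4 each). Its log2 fold change against aged controls was -0.04 ± 0.24 in PAM I livers and -0.16 ± 0.24 in PAM II livers (SE).

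The genes that complete the small subunit and those around the ribosome were read beside the members. Fau, which encodes a ribosomal protein fused to a ubiquitin-like domain and is missed by the name rule, averaged 191 CPM over 16 libraries. Rack1, the signalling scaffold on the small subunit, averaged 261 CPM. Fau had log2 fold changes of 0.31 ± 0.19 in PAM I livers and 0.09 ± 0.19 in PAM II livers against aged controls and -0.20 ± 0.19 in aged controls against young mice (SE). Neither Fau nor Rack1 passed the test by edgeR in any comparison.

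In the antibiotic comparisons no gene of the other ribosome lists passed the test by edgeR, as no gene of the whole table did, and DESeq2 called 1 mitochondrial ribosome gene in PAM I livers. The median log2 fold change in PAM I livers against aged controls was 0.05 over 38 translation factors, 0.08 over 78 ribosome biogenesis genes, 0.06 over 14 RNA polymerase I genes, -0.07 over 31 regulators of ribosomal protein genes and 0.23 over 13 snoRNA host genes, many of which also begin with the oligopyrimidine motif. For 77 mitochondrial ribosome genes it was 0.21, with 30 of them under an unadjusted p of 0.05. At that level edgeR counted 3 translation factors, 6 biogenesis genes, 1 RNA polymerase I gene, 3 regulators and 0 snoRNA host genes, against 9.40% of all genes. In PAM II livers these medians lay between -0.01 and 0.06. Nhp2, a protein of the pseudouridylation complex, had a log2 fold change of 0.38 ± 0.11 and Mrpl34 0.35 ± 0.08 in PAM I livers (SE, adjusted p = 0.506 for both by edgeR).

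In aged controls against young mice, 1 of 78 biogenesis genes fell and none rose, where 3.23% of all genes were called. This was Nop16, a nucleolar protein of large-subunit assembly, with a log2 fold change of -0.49 ± 0.09 (SE, adjusted p = 0.0101 by edgeR), which passed in 17 of 20 other fits. Of 77 mitochondrial ribosome genes 4 fell (Mrps5, Mrpl19, Mrpl34 and Mrpl38) and none rose, with Mrpl34 at -0.33 ± 0.08 (SE, adjusted p = 0.0350 by edgeR). They passed in 4 to 9 of 20 other fits. The same 3.23% of all genes stands beside this count. None of 38 translation factors, 14 RNA polymerase I genes, 31 regulators or 13 snoRNA host genes passed by edgeR, DESeq2 or limma voom. At an unadjusted p under 0.05 edgeR counted 24 mitochondrial ribosome genes, 13 biogenesis genes, 0 translation factors, 3 RNA polymerase I genes, 4 regulators and 1 snoRNA host gene, against 19.0% of all genes. The medians were -0.06 for translation factors, -0.09 for biogenesis genes, -0.17 for mitochondrial ribosome genes and -0.32 for snoRNA host genes, against -0.17 for the members.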

How the data were processed

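Total RNA of 16 livers was sequenced as paired reads, 1 library per mouse. The authors deposited unnormalized counts of fragments for each gene. Per the submitters' processing notes, reads were trimmed with Trimmomatic 0.38 and aligned to mm10 with HISAT2 2.1.0, and per the file headers the authors counted exons with featureCounts 1.5.0-p2 (Ensembl release 99, strand setting 1), without the options that keep multi-mapping or multi-overlapping fragments. Symbols came from GENCODE M21 for 55230 of 55471 identifiers.

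Tests used edgeR 4.0.16 under R 4.3.3. Genes kept by filterByExpr (17046) were scaled by TMM and fitted in 1 robust quasi-likelihood model of 4 group means over 16 libraries, with a biological coefficient of variation of 27.3%. The tests were two-sided, with Benjamini-Hochberg adjustment over all genes tested and a threshold of 0.05. The 5 contrasts set each antibiotic group, and both, against aged controls, PAM II against PAM I, and aged controls against young mice. SE is that of the fit and SD that of 4 libraries. P-values measure the spread between these mice. limma 3.58.1 (voom) and DESeq2 1.42.0 were alternatives, beside other scalings and filters, covariates and leaving out libraries. The script was tested on simulated data.

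The members and the gene lists were chosen with earlier results of these data known. Named per contrast were the 3 members with the smallest p where none was called, and throughout the 5 highest and 5 lowest levels, the paralogs, the stalk and 5S proteins, Rpsa, Rps6, Rps19 and Rps26. Other genes were named after their values were seen. The libraries were distinct: the most similar pair differed by 0.47 in root mean square log2 CPM. Promoter and start sequences are from RefSeq (GRCm38.p6), coding sequences from GENCODE M21. Libraries held 36968993 to 52090914 counted fragments, and the member with the fewest had 1748 over all of them.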

Additional observations from a re-analysis of the deposited data

Results flagged for a closer look

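Within each group of 4 libraries, the gap between the farthest library and its neighbour was divided by the range for the members named above, 124 checks in all, and 4 exceeded Dixon's critical value for 4 samples. Chance flags about 1 in 20 groups, and 4 of 124 checks is not above that share. Rpl24 in young mice had a ratio of 0.947, with 8.39 CPM in replicate 1 against 2.45 to 2.76 CPM in the other 3 libraries. Rpl36al in young mice had a ratio of 0.914, again from replicate 1, with 8.55 CPM. Rpl41 in PAM II livers had a ratio of 0.865 from replicate 1, with 331 CPM, and Rplp1 in PAM II livers had 0.841 from the same library, with 575 CPM. The parts of the 13.5% mitochondrial share in young replicate 1 and of the Kupffer cell sum of 1919 CPM in PAM II replicate 1 were not tested.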

How the results depend on the processing

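No ribosomal protein gene was called in any of 109 combinations of fit and comparison. In both comparisons of PAM II and in that of both antibiotic groups, no gene of the whole table was called in any fit. The count of 0 therefore says nothing about the members there. Over all genes the fits called 0 to 15 in PAM I against aged controls and 155 to 1343 in aged controls against young mice. Leaving out 1 library moved the median log2 fold change of the members between 0.09 and 0.27 in PAM I against aged controls, between -0.15 and 0.08 in PAM II against aged controls, between -0.33 and -0.13 in PAM II against PAM I, between -0.0087 and 0.17 for both antibiotic groups and between -0.26 and -0.04 in aged controls against young mice. Scaling to the summed ribosomal protein counts brought the medians to 0.0021, -6.48e-05, -0.02, 0.0092 and 0.01 in these 5 comparisons, by construction. In PAM II against aged controls, leaving out 1 library moved Rpl9 between -0.036 and 0.21 and Rps3 between -0.073 and 0.16, both negative without PAM II replicate 1, and the cause was not tested. Over all genes, the number called in aged controls against young mice was 551, against 1343 by DESeq2, 198 with only the compared groups, 305 with the muscle covariate, 728 with the mitochondrial mRNA covariate, 155 without aged control replicate 4 and young replicate 1 together, and 199 to 573 with 1 library left out. Scaling to the ribosomal protein sum split the age calls into 486 higher and 71 lower in aged controls. DESeq2 called 15 genes in PAM I against aged controls, against 0 by edgeR, and no member among them. No paired analysis was possible because the replicate numbers follow accession order and the labels tie no mice together.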
